A study of Homo sapiens with 6 samples.

Results

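The DNA sliding clamp PCNA, the 5 subunits of its loader (RFC1 to RFC5), the enzymes FEN1 and LIG1 that finish lagging-strand DNA on the clamp, and the protease relatives FAM111A and FAM111B were followed in A549 cells. These 10 genes were chosen by symbol from a table of 19470 genes, and all 10 were present and passed the filter on low counts. Of the 10, 9 were named for their function. FAM111B was picked because it rose very strongly between these same groups, so its levels are a description and carry no test. A549 is a human lung adenocarcinoma line, labelled wild type here. The series compared 3 libraries of A549 cells induced into dormancy with 3 libraries of A549 cells brought out of it with conditioned medium of osteoclasts, which are bone-resorbing cells. The sources used here do not give how dormancy was induced or which base medium each group had.

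PCNA is a ring that slides along DNA and tethers the replicative polymerases and many other proteins to it. The RFC complex opens the ring with the energy of ATP and closes it around the DNA. RFC1 is the large subunit, and RFC2, RFC3, RFC4 and RFC5 form a core that is shared with other clamp loaders. On the lagging strand, FEN1 cuts the flap that forms when the polymerase meets the fragment ahead, and LIG1 seals the remaining nick. FAM111A is a serine protease that binds PCNA and acts on proteins trapped on DNA, and FAM111B is its paralog. Several of these genes are textbook targets of the E2F transcription factors, which switch on S phase genes.

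Total counts lay between 34128471 and 36667725 per library, and Pearson's r of log2 CPM across genes was at least 0.989 within a group and at most 0.915 between groups. CPM, here always after TMM scaling, corrects a gene's count for the depth of its library. The epithelial keratins KRT8 and KRT18 were abundant in both groups. KRT8 rose from 1672 ± 71.8 to 3460 ± 168 CPM (SD, n = 3; 2.07-fold, adjusted p = 1.27e-10) and KRT18 from 1039 ± 25.3 to 1980 ± 140.4 CPM (1.91-fold, adjusted p = 8.65e-10). EPCAM was low and fell, from 1.28 ± 0.513 to 0.611 ± 0.185 CPM (2.10-fold, adjusted p = 0.0324). Of the 8 listed A549 and epithelial markers, 5 rose, 1 fell and 2, KRT19 and AKR1C1, did not pass (adjusted p = 0.185 and 0.0823). Across all genes tested, 36.5% rose and 37.2% fell. The alveolar surfactant gene SFTPA1 had no counts. NAPSA, the only 1 of 5 alveolar markers tested, had 2.21 ± 0.623 and 1.61 ± 0.292 CPM and did not pass (adjusted p = 0.181). Of 11 osteoclast and myeloid markers, CALCR, OCSTAMP, DCSTAMP, TYROBP and AIF1 had 0 counts in all 6 libraries. The summed level of the 11 was 9.35 to 11.9 CPM in dormant and 18.1 to 18.9 CPM in activated libraries. Of the 5 tested, the myeloid markers CD14, CSF1R and LAPTM5 rose 8.37-fold, 8.42-fold and 9.29-fold (adjusted p = 1.08e-08, 0.000604 and 2.10e-06). CD14 went from 1.10 ± 0.396 to 9.25 ± 0.478 CPM. The osteoclast markers ACP5 and CTSK fell, with log2 fold changes of -3.43 and -0.40 (adjusted p = 0.00124 and 0.0202). CSF1R, LAPTM5 and ACP5 passed the filter on low counts through the higher group alone, so they could only be seen to differ that way. The proliferation marker MKI67 went up from 72.1 ± 2.25 to 317 ± 39.5 CPM. In bulk RNA, more cycling cells and more RNA per cycling cell cannot be told apart.

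RefSeq promoter windows (GRCh38.p14, 250 bases before to 50 after a transcript start) were found for 9 of the 10 genes, in 11 entries, since PCNA and FAM111A each have 2 starts. FAM111B had no entry. The windows were searched on both strands for an E2F-type motif, spelled TTTCCCGC, TTTCGCGC, TTTGCCGC or TTTGGCGC, which does not overlap the other motif searched, CCAAT. The sequences below are the 150 bases before a start, 5′ to 3′ on the gene's strand, with the E2F-type match in capitals. The first 4 are the windows with a match and the last, FEN1, is a strongly rising gene without one.
PCNA, chr20:5126623-5126772, minus strand: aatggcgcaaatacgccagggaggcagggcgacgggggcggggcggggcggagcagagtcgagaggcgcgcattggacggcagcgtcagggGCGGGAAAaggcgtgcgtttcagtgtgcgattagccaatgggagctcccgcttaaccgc
RFC3, chr13:33817999-33818148, plus strand: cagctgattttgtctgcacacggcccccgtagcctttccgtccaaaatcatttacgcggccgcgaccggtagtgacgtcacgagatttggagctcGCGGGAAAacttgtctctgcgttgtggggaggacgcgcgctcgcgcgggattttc
LIG1, chr19:48170345-48170494, minus strand: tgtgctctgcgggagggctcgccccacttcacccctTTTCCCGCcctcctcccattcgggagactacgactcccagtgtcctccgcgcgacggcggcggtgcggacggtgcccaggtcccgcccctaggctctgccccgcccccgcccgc
FAM111A, second start, chr11:59144712-59144861, plus strand: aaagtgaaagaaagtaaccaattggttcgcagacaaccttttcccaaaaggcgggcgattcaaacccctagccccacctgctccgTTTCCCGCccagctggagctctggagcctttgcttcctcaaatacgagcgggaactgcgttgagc
FEN1, chr11:61792761-61792910, plus strand: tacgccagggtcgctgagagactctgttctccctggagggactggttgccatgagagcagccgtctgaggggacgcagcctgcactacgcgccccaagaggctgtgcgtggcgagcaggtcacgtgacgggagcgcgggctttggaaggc

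The match began 59 bases before the start of PCNA, 55 before that of RFC3, 114 before that of LIG1 and 65 before the second start of FAM111A. In PCNA and RFC3 it reads GCGGGAAA, the reverse complement of TTTCCCGC. It was found in 4 of the 11 windows, and in 3.31% of 35114 RefSeq promoter windows of the same length. CCAAT or its reverse complement was found in 5 of the 11 windows and in 34.6% of all windows. A match is a string of letters, not a measured binding site, and no binding data were analysed here.

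The genes of the clamp, its loader and the flap and nick enzymes rose in activated cells, and FAM111A was level between the groups. At an adjusted p threshold of 0.05 with edgeR, 8 of the 9 genes other than FAM111B were called higher, 0 were called lower and 1 did not pass. Across all 13336 genes tested, 73.7% were called, 36.5% higher and 37.2% lower. A rise of at least 2-fold was called for 7 of the 9, against 11.2% of all genes. The median log2 fold change was 1.66 for the 9 and -0.02 for all genes. The genes were chosen with earlier results of these data known, so these shares describe the set and are not a test of it.

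**Figure D1:**
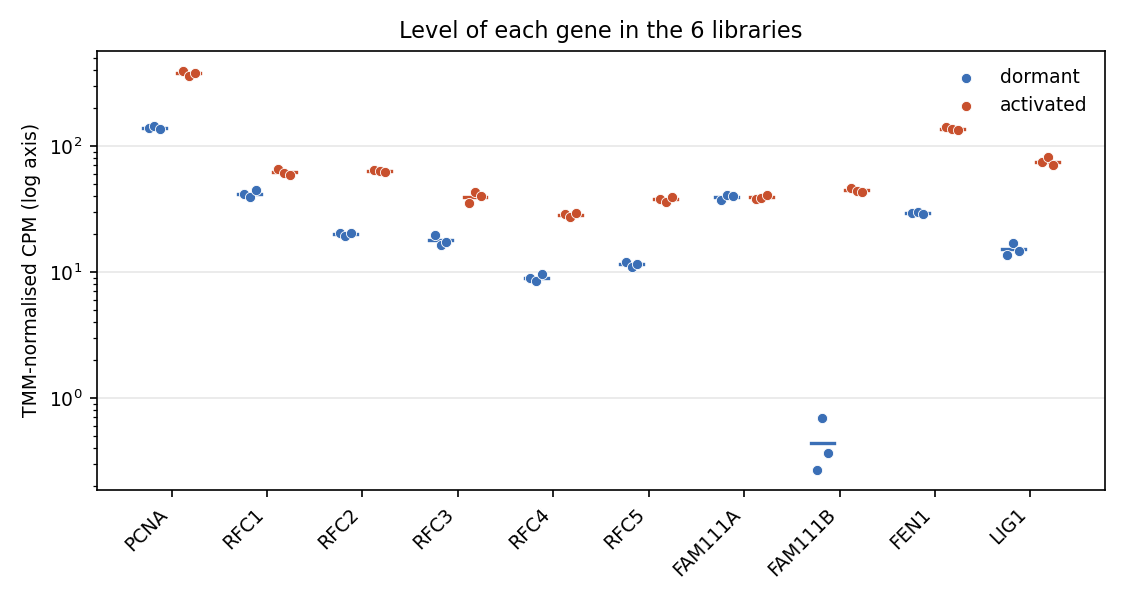
TMM-normalised CPM of the 10 genes (log axis) in each of 3 dormant (blue) and 3 activated (red) libraries, with a bar at the group mean. The groups are apart, with activated cells higher, for 8 of the 9 genes other than FAM111B, and for 37.7% of all tested genes. They overlap for FAM111A. FAM111B, picked for its rise, has dormant values between 0.267 and 0.695 CPM.

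PCNA had the highest level of the 10 in CPM, and also per gene length. It lies on chromosome 20 (5114953 to 5126622, minus strand). The dormant libraries had 139, 145 and 136 CPM and the activated libraries 396, 362 and 379 CPM. Every activated library was above every dormant library, and groups were apart in this way, with activated cells higher, for 37.7% of all tested genes. The rise was 2.71-fold (log2 fold change 1.44 ± 0.05 SE, adjusted p = 3.70e-12). Of all genes tested, 6.61% rose more.

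The 4 small subunits of the loader rose by 2.21-fold to 3.29-fold. RFC2 (chromosome 7, 74231502 to 74254399) had 20.5, 19.3 and 20.3 CPM in dormant and 64.7, 63.8 and 61.5 CPM in activated libraries. RFC4 (chromosome 3, 186789900 to 186806482) had 8.87, 8.54 and 9.54 CPM against 28.8, 27.1 and 29.3 CPM. RFC5 (chromosome 12, 118016703 to 118041448) had 11.9, 10.9 and 11.5 CPM against 37.7, 36.1 and 39.4 CPM. These 3 genes rose by nearly the same factor, with log2 fold changes of 1.66 ± 0.06, 1.66 ± 0.09 and 1.72 ± 0.08 (SE; adjusted p = 5.93e-12, 3.05e-10 and 5.27e-11). RFC3 (chromosome 13, 33818149 to 33977377) had 19.7, 16.4 and 17.4 CPM against 35.4, 42.7 and 39.9 CPM. Its rise was smaller, at 1.14 ± 0.09 on the log2 scale (adjusted p = 2.58e-08), with a 95% interval of 0.95 to 1.34 that lies below the interval of RFC2, 1.53 to 1.79.

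RFC1, the large subunit that marks the replicative loader, rose least of the 5. It lies on chromosome 4 (39287456 to 39366362, minus strand). Dormant libraries had 41.5, 39.6 and 44.6 CPM and activated libraries 65.7, 61.3 and 58.4 CPM. The groups did not overlap, and the rise was 1.48-fold (log2 fold change 0.56 ± 0.07 SE, 95% interval 0.42 to 0.70, adjusted p = 1.83e-06). Of all genes tested, 22.0% rose more than RFC1, against 4.93% for RFC5.

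The balance between RFC1 and the small subunits therefore differed between the groups. To compare genes with each other, FPKM values were used, which divide counts by gene length. RFC1 was 1.31, 1.34 and 1.41 times the mean FPKM of RFC2 to RFC5 in the dormant libraries and 0.669, 0.640 and 0.598 times in the activated libraries. On the log2 scale the ratio went from 0.43 ± 0.05 to -0.66 ± 0.08 (SD, n = 3), a difference of -1.09. All dormant libraries were above all activated ones, with p = 0.10 in a two-sided exact permutation test, the smallest p that 3 against 3 can give. As a share of the 5 subunits' summed FPKM, RFC1 went from 25.2 ± 0.715% to 13.7 ± 0.671%. RFC2 went from 34.6 ± 0.599% to 40.3 ± 0.968%, RFC4 from 19.3 ± 0.551% to 22.5 ± 0.753% and RFC5 from 16.2 ± 0.416% to 19.7 ± 0.809%. RFC3 made up 4.65 ± 0.369% and 3.79 ± 0.412%. The deposited FPKM of RFC3 rests on a length of 11245 bases, against 1365 to 4873 bases for the other subunits, so its level depends on the gene model used by the authors.

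**Figure D2:**
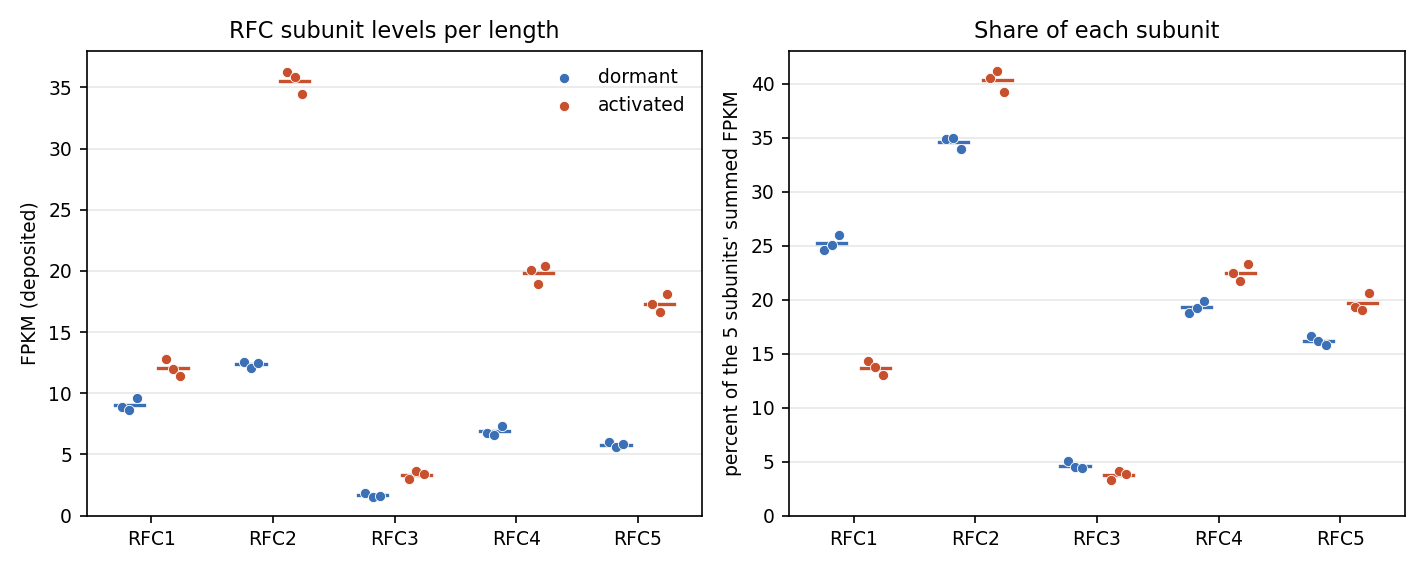
Left, deposited FPKM of the 5 RFC subunits in each dormant (blue) and activated (red) library, with a bar at the mean. Right, each subunit's percent of the summed FPKM of the 5. RFC1 falls from a share of 25.2% to 13.7% while the shares of RFC2, RFC4 and RFC5 are higher in every activated library.

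FEN1 and LIG1, which act on DNA after the clamp is in place, had larger log2 fold changes than PCNA or any RFC subunit. FEN1 (chromosome 11, 61792911 to 61797238) had 29.3, 29.8 and 28.7 CPM in dormant and 142, 135 and 134 CPM in activated libraries. Its rise was 4.68-fold (log2 fold change 2.23 ± 0.05 SE, 95% interval 2.11 to 2.34, adjusted p = 8.88e-14). LIG1 (chromosome 19, 48115445 to 48170344, minus strand) had 13.7, 17.0 and 14.7 CPM against 74.2, 81.1 and 70.4 CPM. Its rise was 4.97-fold (log2 fold change 2.31 ± 0.08 SE, 95% interval 2.13 to 2.49, adjusted p = 4.25e-12). The intervals of FEN1 and LIG1 overlap each other and lie above that of PCNA, 1.33 to 1.55. The difference between these genes' changes was not tested. MKI67 rose 4.39-fold in the same libraries, and the part of cycling cells in these rises was not tested.

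FAM111A and FAM111B lie side by side on chromosome 11 in the same orientation. FAM111A was level and FAM111B, picked for it, was far higher in activated cells. FAM111B occupies 59107237 to 59127412 and FAM111A 59142856 to 59155039, with a gap of 15443 bases and no gene of the count table between them. FAM111A had 37.2, 40.8 and 40.0 CPM in dormant and 37.9, 38.9 and 40.6 CPM in activated libraries. The groups overlapped, and its log2 fold change was -0.01 ± 0.06 (SE, 95% interval -0.15 to 0.13, adjusted p = 0.917), an interval that holds changes of either sign. Scaled by total counts, it was -0.15 (adjusted p = 0.0551).

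FAM111B went from counts of 10, 27 and 13 in the dormant libraries to 1599, 1534 and 1405 in the activated ones. In CPM these are 0.267, 0.695 and 0.364 against 46.7, 44.2 and 42.8. Dormant replicate 2 held 27 of the 50 dormant counts, and no activated library came near the dormant range. The fitted change was 99.2-fold, rank 16 of 13336 in log2 fold change, and 0.112% of tested genes rose more. The ratio of summed counts was 99.95, given as a description with no interval, since FAM111B was picked for this rise. The fitted fold was 140.5 without dormant replicate 2 and 83.1 without dormant replicate 1. The next gene in the set, LIG1, rose 4.97-fold.

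Per length, the pair changed order. In dormant libraries FAM111B FPKM was 0.00854, 0.0202 and 0.0108 times that of FAM111A, and in activated libraries 1.47, 1.35 and 1.25 times. The mean FPKM of FAM111A was 9.91 ± 0.564 in dormant and 8.94 ± 0.316 in activated cells, and that of FAM111B 0.133 ± 0.0686 and 12.1 ± 0.541. FPKM is scaled by total counts, which places activated FAM111A slightly lower than TMM scaling does.

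**Figure D3:**
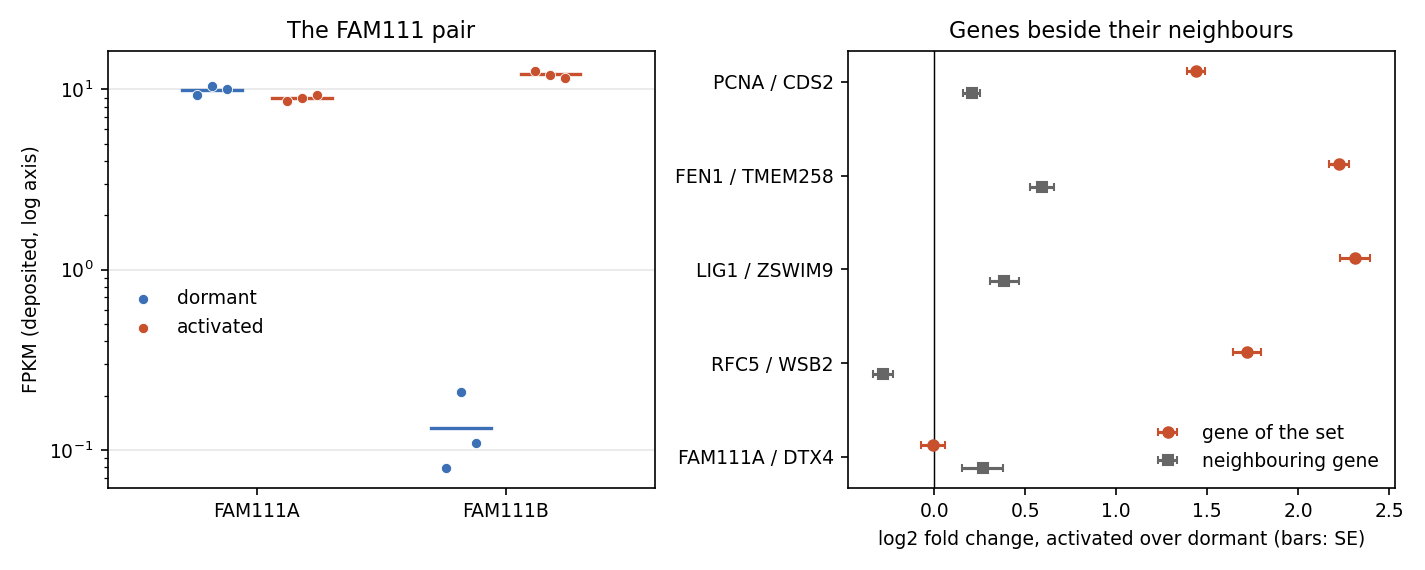
Left, deposited FPKM (log axis) of FAM111A and FAM111B in each dormant (blue) and activated (red) library, with a bar at the mean; FAM111A stays near 9 to 10 while FAM111B goes from 0.133 to 12.1 on average. Right, log2 fold change with SE of 5 genes of the set (red) and a neighbouring gene (grey), where PCNA, FEN1, LIG1 and RFC5 are each far above their neighbour.

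The genes next to PCNA, FEN1, LIG1 and RFC5 had smaller log2 fold changes than these did. CDS2, whose start lies 386 bases from that of PCNA on the other strand, rose 1.15-fold (adjusted p = 0.00086). With total counts its log2 fold change was 0.07 and no longer passed (adjusted p = 0.202). TMEM258 starts 312 bases from FEN1 and rose 1.51-fold (adjusted p = 1.28e-06), and ZSWIM9 starts 336 bases from LIG1 and rose 1.31-fold (adjusted p = 0.000435). WSB2 overlaps RFC5 by 8762 bases on the other strand and fell by 0.28 on the log2 scale (adjusted p = 0.000339). The sources used here do not say whether counting used strand, so reads of RFC5 and WSB2 in the overlap may not be told apart, and the same holds for antisense RNAs within PCNA and LIG1. Beyond the FAM111 pair, DTX4 began 16391 bases after FAM111A and went from 13.95 ± 1.52 to 16.8 ± 1.95 CPM (adjusted p = 0.0445), a log2 fold change of 0.27. That call ended with total counts (adjusted p = 0.327), with upper-quartile factors (0.0679) and in the FPKM fits (0.36 to 0.44). It also ended without dormant replicate 1 (adjusted p = 0.162), without dormant replicate 2 (0.0931) and without activated replicate 2 (log2 fold change 0.17, adjusted p = 0.19). GLYATL1B and MPEG1, the nearest listed gene before FAM111B and the second after FAM111A, had 0 counts in all libraries. GLYATL1 had 3 counts in all, GLYATL2 26 and OR5AN1 0.

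The order of the 10 genes by FPKM was led by PCNA, FEN1 and RFC2 in both groups. In dormant cells PCNA had 104.9 ± 4.24 FPKM, FEN1 15.2 ± 0.383 and RFC2 12.4 ± 0.283. FAM111A and RFC1 followed, with ranges that overlapped, then RFC4, and then RFC5 and LIG1, whose ranges also overlapped. RFC3 and FAM111B were lowest. In activated cells PCNA had 258 ± 11.2 FPKM, FEN1 64.7 ± 2.03 and RFC2 35.5 ± 0.928, followed by LIG1 at 22.9 ± 1.67. LIG1 thus moved from place 8 to place 4, FAM111B from 10 to 7 and FAM111A from 4 to 9. In activated cells FAM111B and RFC1 did not differ beyond their spread, at 12.1 ± 0.541 and 12.1 ± 0.713 FPKM.

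Within groups the members did not share a common high or low library. Dormant replicate 2 held the highest value of PCNA, FAM111A, FAM111B, FEN1 and LIG1 and the lowest value of all 5 RFC genes. Activated replicate 1 was highest for 5 members and activated replicate 3 lowest for 5. With 3 libraries a group these orders are a description only.

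Other genes that act on or with the clamp were taken from 6 lists of 61 genes, of which 59 were tested. In all, 37 rose, 12 fell and 10 did not pass, with a median log2 fold change of 0.42. Over all genes tested, 36.5% rose and 37.2% fell, and nothing particular to these lists is read from their counts. Among genes of the loaders and unloaders that pair RFC2 to RFC5 with another large subunit, 3 of 4 tested rose and 1 fell. These are genes, not loaders, since DSCC1 and CHTF18 belong to the same one. DSCC1, a partner of the CTF18 loader of sister chromatid cohesion, rose from 2.65 ± 0.0293 to 13.0 ± 1.24 CPM (4.90-fold, adjusted p = 1.58e-09). CHTF18, the large subunit of that loader, rose 4.29-fold and ATAD5, which unloads PCNA, 4.13-fold; both are named as the rest of this short list, after their values were seen. RAD17, which loads the 9-1-1 checkpoint clamp, fell from 40.5 ± 1.10 to 20.6 ± 1.67 CPM, a change of -0.98 on the log2 scale (adjusted p = 1.85e-08). CHTF8 is listed at 0 counts in all libraries. Since the annotation and the handling of overlapping genes are not given, this limits its counted reads (at most 0.0295 CPM over the activated libraries), not its expression.

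The large subunits that share the RFC core thus differed in direction, with RFC1, CHTF18 and ATAD5 higher and RAD17 lower in activated cells. The list of the 9-1-1 clamp, the ring that RAD17 loads at damaged DNA, also held RHNO1, which binds the ring and is not part of it. In this list 3 of 5 tested genes rose and 0 fell, beside 36.5% and 37.2% of all genes. This became 1 and 0 with total counts, and the median log2 fold change in the main fit was 0.19. RAD9A, a subunit of the ring, rose 1.34-fold (adjusted p = 0.0011), and RHNO1 was also among those that rose (1.14-fold, adjusted p = 0.0211).

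**Figure D4:**
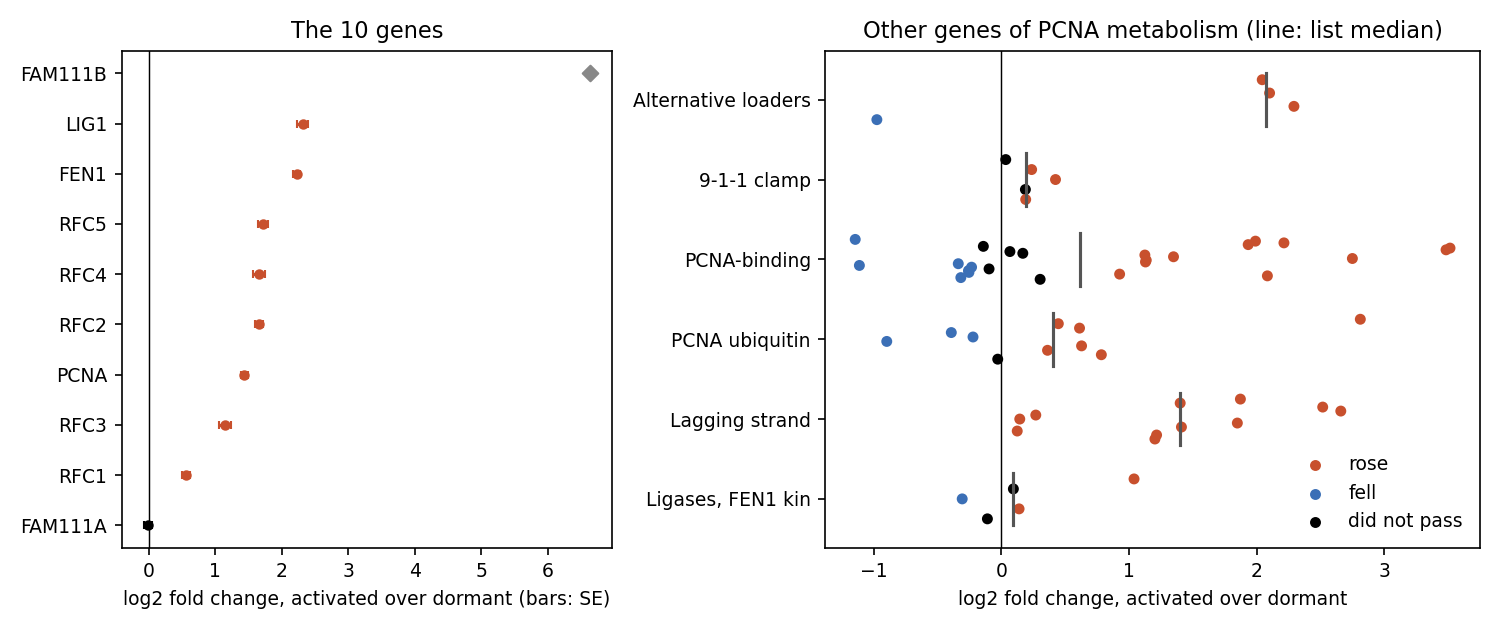
Left, log2 fold change with SE for the 10 genes; red genes passed the test, FAM111A (black) did not and FAM111B (grey diamond) was not tested. Right, the tested genes of 6 lists by log2 fold change, red where they rose, blue where they fell and black where they did not pass, with a line at each list's median. All 11 genes of the lagging-strand list lie above 0, while the PCNA-binding and ubiquitin lists spread to both sides.

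The 11 listed primase, polymerase and primer removal genes of the lagging strand all rose in the main fit, with a median of 1.40. Across all genes tested, 36.5% rose. Under other settings 9 to 11 of the list rose. The number was 9 with total counts, in the FPKM fits and without dormant replicate 3 or activated replicate 3, and 10 with upper-quartile factors. POLD1, the catalytic subunit of the polymerase that PCNA tethers on that strand, rose from 19.9 ± 0.432 to 126 ± 8.82 CPM (6.32-fold, adjusted p = 8.70e-14). RNASEH2B, of the same enzyme as the listed RNASEH2A and RNASEH2C, was counted among the PCNA-binding proteins instead. It fell by 0.26 on the log2 scale (adjusted p = 0.0157), so 11 of 11 depends on how the list was drawn. Of 24 proteins that bind PCNA, 12 rose, 7 fell and 5 did not pass (median 0.62). That is near the 73.7% of all tested genes that were called in either direction. ESCO2, an acetyltransferase of cohesin, rose 11.4-fold, from 1.97 ± 0.430 to 22.6 ± 1.84 CPM (adjusted p = 2.20e-11). CDKN1A, the p21 inhibitor that binds PCNA and cyclin-dependent kinases, had the largest fall of this list, from 734 ± 19.4 to 332 ± 5.27 CPM. That is a log2 fold change of -1.15 ± 0.05 (SE, adjusted p = 1.42e-11).

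Among 10 enzymes that attach ubiquitin to PCNA, remove it or use the clamp as a platform, 6 rose and 3 fell (6 and 4 with total counts), with a median of 0.40. Across all genes tested, 36.5% rose and 37.2% fell. DTL, the adaptor that targets PCNA-bound proteins for destruction, rose from 10.9 ± 1.37 to 76.6 ± 3.19 CPM (7.03-fold, adjusted p = 4.90e-13). UBE2B, a conjugating enzyme that works with RAD18, fell by 0.90 on the log2 scale (adjusted p = 7.92e-08). Of the other ligases and flap nuclease relatives, 2 of 5 rose and 1 fell (1 and 1 with total counts), with a median of 0.09. The counts of this last list are near or below the shares of all genes called in each direction, 36.5% and 37.2%. GEN1, a nuclease of the FEN1 family that cuts DNA junctions, rose 2.06-fold (adjusted p = 7.08e-07). LIG4, the ligase of end joining, fell by 0.31 on the log2 scale (adjusted p = 0.0195), and this call ended without dormant replicate 2 (-0.17, adjusted p = 0.154) and without activated replicate 3 (-0.30, adjusted p = 0.054).

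The genes most like FAM111B and PCNA in profile were sought by the root mean square difference of log2(CPM + 1), centred on each gene's mean over 6 libraries, among all tested genes. Closest to FAM111B were CA9, ANGPTL4, ITGB3, FGB and P2RY6, with differences of 0.263 to 0.351. CA9, a carbonic anhydrase known as a hypoxia target, went from 0.553 ± 0.305 to 51.4 ± 4.99 CPM. None of these 5 is a gene of DNA replication, and LIG1, the nearest member of the set, was at place 172 in likeness with 1.38. Closest to PCNA were COPS6, TPBG, HSP90AA1, SELENOM and CENPH, with differences of 0.0354 to 0.0467. Of the set, RFC4 was nearest to PCNA, at place 94 with 0.0957, and FAM111B was at place 13210. With 2 groups, likeness mostly reflects the size of the change in log2(CPM + 1) between them. The 1 CPM added lies above every dormant value of FAM111B and shrinks its change. The 5 genes closest to FAM111B had fitted rises of 25.3-fold (ANGPTL4) to 93.7-fold (CA9), against 99.2-fold for FAM111B.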

How the data were processed

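TRIzol was used to extract total RNA of the A549 cells and a VAHTS Universal V6 kit to prepare libraries, per the labels' protocols. Separate cultures are not named for the 3 libraries of a group, so the p-values reflect only how these libraries vary, possibly for technical reasons. One table deposited by the authors holds raw whole-number counts for each symbol. The deposited FPKM values equalled those counts divided by a gene length and the library total, for all 10754 genes with at least 100 counts in every library. The build GRCh38 and the tools HISAT2, HTSeq and fastp are named, per the submitters' processing notes; the sources used here do not give versions, annotation or strand setting.

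Groups were compared by the quasi-likelihood test of edgeR 4.0.16 in R 4.3.3, run on counts with TMM factors after its default low-count filter, with Benjamini-Hochberg adjustment over all 13336 genes tested, with a threshold of 0.05. Values are mean ± SD of 3 libraries. The SE was obtained by dividing a log2 fold change by the root of its F statistic, and intervals of a log2 fold change are 95% intervals from it. The procedure was tested on simulated counts. Coordinates are 1-based, from RefSeq GRCh38.p14. The genes and lists were chosen with earlier results of these data known. Genes named outside the 10 were, per list, the largest rise and fall past the threshold; genes overlapping a member or starting within 1000 bases of it; the 3 nearest counted genes on either side of the FAM111 pair; the 5 most alike in profile to FAM111B and PCNA, with a pseudocount of 1 CPM; and MKI67. The marker genes, CHTF8, CHTF18, ATAD5, RHNO1, RNASEH2A, RNASEH2B and RNASEH2C fall outside this rule and were named after their values were seen. Deviations of libraries that share a replicate number correlated at -0.0152, 0.0190 and -0.0057 across genes, so numbers were not taken as pairs. Alternatives were other scalings, DESeq2 1.42.0, limma 3.58.1 (voom, or log2 FPKM with a pseudocount of 1 or 0.1, filtered at 0.5 mean FPKM or, for a pseudocount of 1, also unfiltered), other filters on counts, a replicate block and leaving out each library.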

Additional observations from a re-analysis of the deposited data

How the results depend on the processing

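The call of each of the 9 members other than FAM111B was the same in all 153 values from other scalings, tools, filters, units and left-out libraries; the sign of FAM111A, which never passed, varied between -0.15 and 0.02. The number of members called higher was 8 throughout. The count of changed genes, 9830 (4868 higher, 4962 lower), was 9109 to 10009 under other settings and 9298 to 9756 without 1 library. With total counts, the median over all genes tested went from -0.02 to -0.16 (log2) and the higher share of calls from 49.5% to 39.7%. Genes of the context lists called were 31 to 37 higher and 9 to 14 lower over all settings. With the replicate block, 9789 genes changed and no call of a member changed. The RFC1 ratio difference of -1.09 was -1.08 with FPKM + 0.1, -0.99 with a geometric mean and -1.13 to -1.04 without 1 library; as a replicate block of 3 differences its exact sign-flip p was 0.25, the smallest possible.

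The log2 ratio of FAM111B to FAM111A differed by 6.78 between groups, by 5.90 with FPKM + 0.1 and by 6.52 to 7.14 without 1 library. The log2 fold change of FAM111B was 3.53 with log2(FPKM + 1), since a pseudocount above the dormant level shrinks it. Its 50 dormant counts limit the precision of its fold change.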
